A study of Mus musculus with 12 samples.

Results

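The genes of matricellular proteins and of the enzymes that crosslink the extracellular matrix were followed in white adipose tissue of mice with and without Ahnak, on regular chow and on a high fat diet (HFD). They are 9: Thbs1, Thbs2, Tnc, Fn1, Sparc, Postn, Lox, Loxl1 and Loxl2. A gene was taken up where a row of the array table was annotated with that symbol alone, and where several rows were, the row with the highest mean over the 12 arrays stood for it. This gave 8 of the 9 genes, out of 19937 genes in all, and each of the 8 had 1 row. The row that holds Loxl2 is also annotated to Gm21451, so Loxl2 has no values here.

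The study profiled male mice, 18 weeks of age, on 1-colour Affymetrix whole-transcript arrays, 1 array per sample. Wild-type mice (WT) and mice with a knockout of Ahnak (KO) were each fed chow or HFD, which makes 4 groups with 3 arrays in each. The feeding lasted 12 weeks in all groups, and the HFD was 60% fat with 20% protein and 20% carbohydrate. The fat depot and the knockout allele are not named in the labels, nor is it said that each replicate was a separate animal. The p-values therefore measure only the spread between these samples.

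Matricellular proteins are secreted into the matrix and mainly tune how cells attach to it and respond to growth factors, while contributing little to its mechanical strength. Thrombospondins bind the receptors CD36 and CD47, tenascin C weakens cell adhesion, and fibronectin forms fibrils through integrin binding. Periostin and SPARC take part in collagen assembly, and lysyl oxidases oxidise lysines of collagen and elastin so that the fibres become crosslinked. In adipose tissue this matrix surrounds each adipocyte and is remodelled as the cells enlarge.

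On either diet the 3 KO arrays had less Ahnak signal than the 3 WT arrays. It lay at 9.94, 10.06 and 10.08 on the WT and at 9.31, 9.27 and 9.42 on the KO arrays on chow, and at 10.27, 9.68 and 10.04 on the WT and at 9.58, 9.40 and 9.45 on the KO arrays on HFD. All values are log2 intensities as deposited. The difference was -0.69 ± 0.13 (SE) on chow (limma adjusted p = 0.38) and -0.52 ± 0.13 on HFD (adjusted p = 0.021). Where the probes of this row lie relative to the deletion is not stated in the labels. Array medians ran from 5.78 to 5.92, and arrays of a group correlated across genes at r = 0.985 to 0.996, where genes are not independent replicates. The adipocyte genes Adipoq and Plin1 lay above 12 on every array.

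Promoter sequences were given for 4 of the 9 genes (Postn, Tnc, Sparc and Thbs2) by the RefSeq table of build GRCm38.p6. The 250 bases before the annotated start are shown for 1 gene that followed the diet in both genotypes (Thbs2) and for 2 that were lower in KO on HFD (Tnc, at the more upstream of its 2 annotated starts, and Sparc). They are read 5′ to 3′ on the gene's own strand, and capitals mark matches to TATAAA or GGGCGG on either strand.
Thbs2, chr17:14694263-14694512, minus strand: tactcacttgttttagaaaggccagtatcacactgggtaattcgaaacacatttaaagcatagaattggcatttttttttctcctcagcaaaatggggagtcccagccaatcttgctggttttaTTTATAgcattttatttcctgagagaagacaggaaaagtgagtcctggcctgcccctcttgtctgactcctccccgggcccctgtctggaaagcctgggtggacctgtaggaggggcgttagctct
Tnc, chr4:64047016-64047265, minus strand: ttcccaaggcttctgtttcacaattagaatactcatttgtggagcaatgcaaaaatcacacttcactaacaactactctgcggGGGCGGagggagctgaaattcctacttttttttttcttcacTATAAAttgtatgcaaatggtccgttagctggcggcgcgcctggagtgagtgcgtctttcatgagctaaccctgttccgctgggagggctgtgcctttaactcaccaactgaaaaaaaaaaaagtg
Sparc, chr11:55420081-55420330, minus strand: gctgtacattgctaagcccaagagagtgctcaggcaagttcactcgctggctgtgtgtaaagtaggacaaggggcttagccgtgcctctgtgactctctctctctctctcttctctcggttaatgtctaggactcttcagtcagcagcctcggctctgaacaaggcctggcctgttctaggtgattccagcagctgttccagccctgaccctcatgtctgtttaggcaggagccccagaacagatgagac
TATAAA, the core of the TATA box, had a match beginning 126 bases before the start in Tnc and, on the opposite strand, in Thbs2. Of the 2 Postn stretches, which are not shown, that at the more downstream start had TATAAA 26 bases before it. The sequence GGGCGG, bound by SP1 family factors, was matched in Tnc 167 bases before the start, and the Sparc stretch held neither. Over all 32851 promoters of the table, TATAAA was found in 12.4% and GGGCGG in 32.7% of stretches of this length. Neither TGANTCA, the AP-1 site, nor CATTCC, the TEAD site, was matched on either strand in any of these 3 stretches or in the 2 of Postn. Their shares over all promoters were 6.75% and 12.6%. A match describes the letters only.

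The first comparison asks how the diet moved these genes in wild-type fat. All 8 measured genes rose on HFD in WT, from 1.29-fold for Sparc to 5.003-fold for Thbs1, against 11.8% of all genes tested that passed in this direction. The threshold was an adjusted p (Benjamini-Hochberg over the 19937 genes, from limma) under 0.05, and changes are differences of mean log2 values ± SE. The median change of the 8 was 1.14, where that of all genes was -0.03. For all 8 the HFD arrays lay above every chow array, as for 17.3% of all genes. The members and the lists used below were chosen with earlier results of these data known. Counts set beside the share of all genes are therefore a description and not a test. In bulk tissue a change of RNA level within cells and a change in the number of cells of a type cannot be told apart.

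Among the thrombospondins and tenascin, Thbs1, which encodes an activator of latent TGF-beta and inhibitor of vessel growth, lay at 8.999, 9.58 and 9.03 on the WT chow arrays and at 12.21, 11.35 and 11.01 on the WT HFD arrays. It rose by 2.32 ± 0.32 (adjusted p = 0.0012), and no array of the groups came near the other group. Thbs2, a relative that also restrains vessel growth, lay at 7.86, 7.85 and 7.79 on chow and at 9.03, 9.80 and 8.90 on HFD. Its chow arrays were tightly grouped (SD 0.04, n = 3) and it rose by 1.41 ± 0.27 (adjusted p = 0.0041). Tnc, which encodes tenascin C, lay at 5.39, 5.49 and 5.53 on chow and at 6.39, 7.52 and 7.01 on HFD. It rose by 1.502 ± 0.23 (adjusted p = 0.0017), and the HFD arrays spread over more than 1 log2 unit.

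Among the adhesive glycoproteins, Postn, which encodes periostin, lay at 9.58, 9.07 and 9.23 on WT chow arrays and at 11.05, 12.09 and 11.39 on WT HFD arrays. It rose by 2.22 ± 0.33 (4.66-fold, adjusted p = 0.0015), next to Thbs1 in size. Fn1, which encodes fibronectin, lay at 11.40, 11.16 and 11.10 on chow and at 12.12, 12.12 and 12.00 on HFD, a tight group. It rose by 0.86 ± 0.15 (adjusted p = 0.0029). Sparc, a collagen-binding glycoprotein made by adipocytes and stromal cells, lay at 12.99, 12.91 and 12.89 on chow and at 13.27, 13.24 and 13.37 on HFD. Its rise was small, 0.37 ± 0.07, and lay outside the spread of both groups (adjusted p = 0.0041).

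Of the lysyl oxidases, Lox, the founding enzyme of the family, lay at 8.82, 8.49 and 8.43 on WT chow arrays and at 9.10, 9.70 and 9.39 on WT HFD arrays. It rose by 0.82 ± 0.17 (adjusted p = 0.0058). Loxl1, which acts mainly on elastic fibres, lay at 9.85, 9.68 and 9.48 on chow and at 10.10, 10.26 and 9.88 on HFD. It rose by 0.41 ± 0.12 (adjusted p = 0.031), and the highest chow array lay just below the lowest HFD array. The call of Loxl1 was lost without any 1 of WT chow replicates 2 and 3 and WT HFD replicates 1 and 2 (adjusted p = 0.060 to 0.12). It was also lost in a fit to the 6 WT arrays alone (0.078), after quantile normalization (0.0503) or with array weights, where its change was 0.17 (0.13). The other 7 kept their calls in every one of the 20 settings tried.

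**Figure D1:**
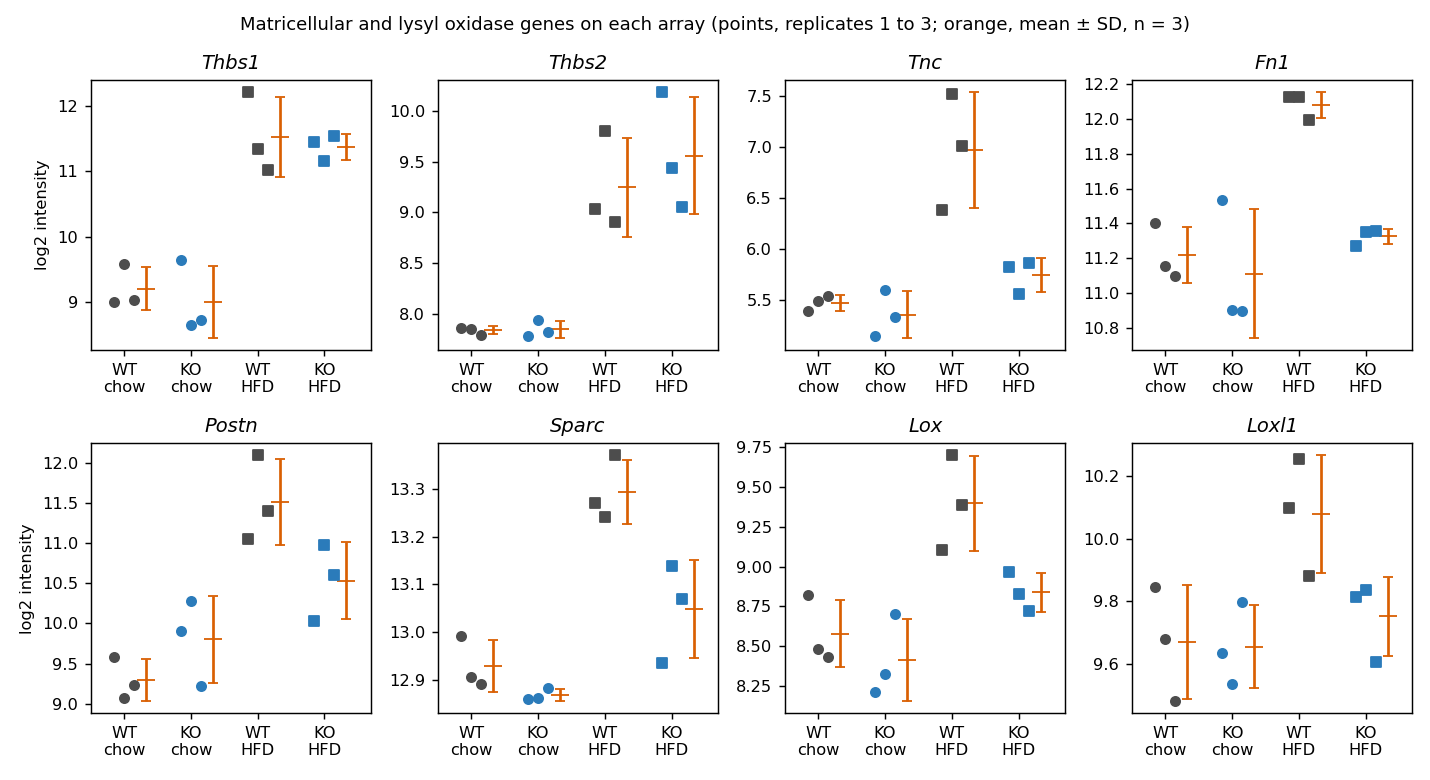
Log2 intensity (vertical axis, a separate scale for each gene) of the 8 measured genes on the 12 arrays by group; grey points are WT, blue points KO, circles chow, squares HFD, with replicates 1 to 3 from left to right and the mean ± SD in orange. Thbs1 and Thbs2 are high on all 6 HFD arrays, while Tnc and Fn1 on the KO arrays on HFD lie below every WT array on HFD.

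The same diet comparison in KO asks whether the response was present without Ahnak. Both thrombospondins rose in KO and the other 6 genes did not pass, so 2 of 8 passed where 2.8% of all genes tested rose. Thbs1 lay at 9.64, 8.65 and 8.73 on the KO chow arrays and at 11.45, 11.15 and 11.53 on the KO HFD arrays, and it rose by 2.37 ± 0.32 (5.19-fold, adjusted p = 0.0070). Thbs2 lay at 7.78, 7.94 and 7.82 on chow and at 10.19, 9.43 and 9.06 on HFD, and it rose by 1.71 ± 0.27 (3.28-fold, adjusted p = 0.012). In both genes all KO HFD arrays stood more than 1 log2 unit above every KO chow array.

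The diet changes of the other 6 genes in KO were smaller. Postn lay at 9.91, 10.28 and 9.22 on KO chow arrays and at 10.03, 10.98 and 10.60 on KO HFD arrays, a change of 0.73 ± 0.33 (95% interval 0.01 to 1.45, adjusted p = 0.21) with overlapping groups. Tnc lay at 5.14, 5.59 and 5.33 on chow and at 5.82, 5.56 and 5.86 on HFD (0.39 ± 0.23, interval -0.11 to 0.89, adjusted p = 0.34). The groups of Tnc overlapped, since KO HFD replicate 2 lay below KO chow replicate 2. Fn1 lay at 11.54, 10.90 and 10.90 on chow and at 11.27, 11.35 and 11.35 on HFD (0.21 ± 0.15, interval -0.12 to 0.54, adjusted p = 0.45). Its KO chow replicate 1 was the highest of the 6 KO arrays. Lox had 0.43 ± 0.17 (interval 0.06 to 0.79, adjusted p = 0.16) and Sparc 0.18 ± 0.07 (interval 0.03 to 0.33, adjusted p = 0.15). Loxl1 had 0.10 ± 0.12 (interval -0.17 to 0.36, adjusted p = 0.69). Limma gave an unadjusted p under 0.05 for 5 members and for 4547 of all genes. For Lox and Sparc, as for Thbs1 and Thbs2, the KO HFD arrays did not overlap the KO chow arrays. That makes 4 of 8 genes, where 15.1% of all genes lay apart in this direction.

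**Figure D2:**
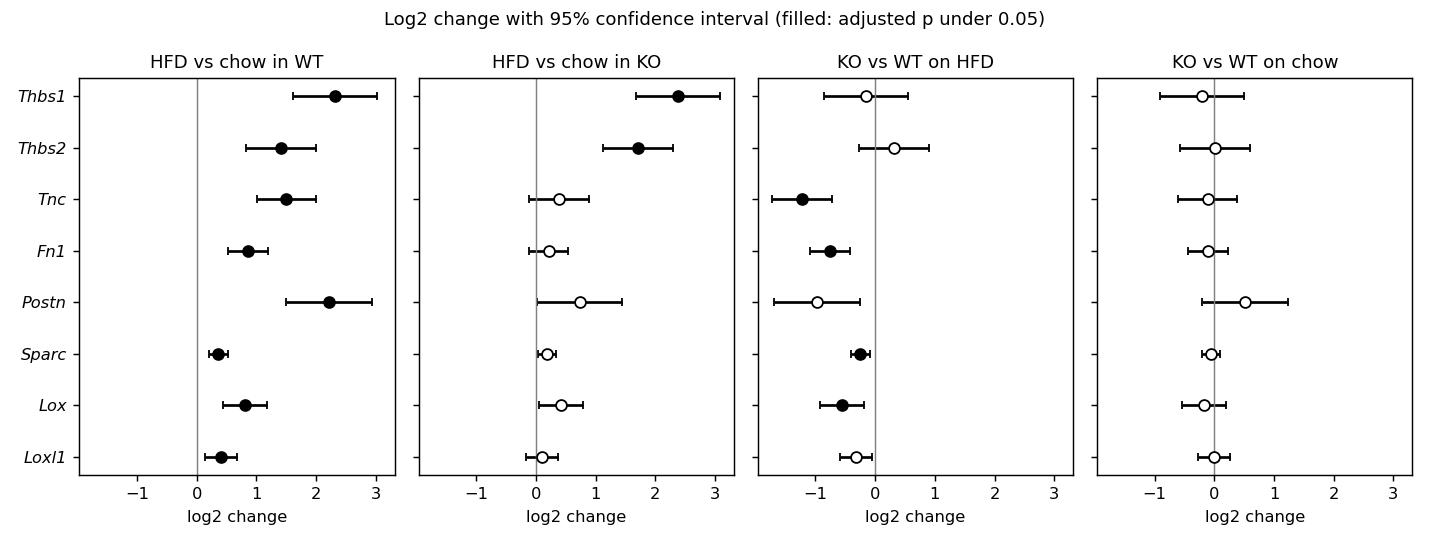
Log2 change (horizontal axis) with its 95% confidence interval for the 8 genes in 4 comparisons, from 1 fit to all 12 arrays; filled points passed at an adjusted p under 0.05. All 8 points are filled for the diet in WT, only Thbs1 and Thbs2 for the diet in KO, and Tnc, Fn1, Sparc and Lox for KO against WT on HFD.

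The comparison of KO with WT on HFD asks what the loss of Ahnak changes under the dietary load. Tnc, Fn1, Lox and Sparc fell, 4 of 8 against 6.85% of all genes tested that passed in this direction, and no member rose, where 6.65% of all genes did. The median of the 8 was -0.44, against 0.02 over all genes. In 6 of 8, the 4 and also Postn and Loxl1, every KO array lay below every WT array, as in 13.5% of all genes. The shares are a description only, since the members were chosen with earlier results of these data known. This comparison shares its WT HFD arrays with the diet comparison in WT and its KO HFD arrays with that in KO, so the 3 are not independent of each other.

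Tnc fell by 1.23 ± 0.23 (2.34-fold, adjusted p = 0.0082), the largest fall of the 4, from 6.39, 7.52 and 7.01 in WT to 5.82, 5.56 and 5.86 in KO. Outside the WT HFD arrays Tnc was dim, at 5.14 to 5.86, near or below the array medians (5.78 to 5.92). Without detection calls it is unknown whether these values lie above background, so the size of this fall is uncertain. Fn1 fell by 0.76 ± 0.15 (1.69-fold, adjusted p = 0.011), and both groups were tight (SD 0.07 in WT and 0.05 in KO, n = 3). Lox lay at 8.97, 8.83 and 8.72 on the KO HFD arrays, all below the lowest WT array at 9.10, and it fell by 0.56 ± 0.17 (adjusted p = 0.0496). Sparc lay at 12.94, 13.14 and 13.07 on the KO HFD arrays and fell by 0.25 ± 0.07 (1.19-fold, adjusted p = 0.038). Postn, at -0.98 ± 0.33 (adjusted p = 0.072), had no pass although its KO arrays (10.03 to 10.98) lay below its WT arrays (11.05 to 12.09). It passed without WT HFD replicate 1 (-1.21, adjusted p = 0.031) and with array weights (-0.83, adjusted p = 0.0066). Loxl1, at 9.81, 9.84 and 9.61 on the KO HFD arrays, had -0.33 ± 0.12 (adjusted p = 0.10).

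The thrombospondins overlapped between genotypes on HFD. Thbs1 had -0.15 ± 0.32 (95% interval -0.85 to 0.56, adjusted p = 0.84) and Thbs2 0.31 ± 0.27 (interval -0.27 to 0.90, adjusted p = 0.53). Intervals of this width do not show the genotypes to be equal. With array weights Thbs2 rose in KO by 0.51 (adjusted p = 0.042), and the value of Thbs1 was then 0.36 (adjusted p = 0.20). With array weights 6 of the 8 members were thus called, Tnc, Fn1, Lox, Sparc and Postn lower and Thbs2 higher. That setting called 7648 of all 19937 genes, against 2691 in the main fit.

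The calls of Tnc and Fn1 held without any array (adjusted p up to 0.037 and 0.048), whereas that of Sparc was lost without 10 of the 12 arrays and that of Lox without 9 of them. Without any 1 of WT chow replicates 2 and 3, KO chow replicates 1 and 2, WT HFD replicates 2 and 3 and KO HFD replicates 1 and 3, 2 members were called in place of 4. In a fit to the 6 HFD arrays alone 0 of 8 passed (Fn1 adjusted p = 0.0505, Tnc 0.066, Lox 0.092, Sparc 0.13), and 4 of all genes did.

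On chow the genotypes did not differ detectably in these genes. Limma called 0 of 8 members and 0% of all genes, and 0 members had an unadjusted p under 0.05 against 1116 of all genes. Ahnak itself did not pass on chow, although its KO arrays lay below its WT arrays. The absence of calls therefore does not show the genotypes to be equal on chow. The members ranged from -0.20 ± 0.32 for Thbs1 to 0.51 ± 0.33 for Postn, with adjusted p of 0.94 to 0.998. Their median was -0.08, where that of all genes was 0.01. Sparc alone had KO arrays (12.86, 12.86 and 12.88) below all WT arrays (12.89 to 12.99), 1 of 8 where 5.74% of all genes lay apart in this direction, and its difference was -0.06 ± 0.07. The interval for Tnc ran from -0.61 to 0.38 and that for Fn1 from -0.44 to 0.22. For Fn1 it leaves out the HFD estimate of -0.76, but it meets the HFD interval (-1.09 to -0.42). Tnc was dim on all chow arrays (5.14 to 5.59), where background is unknown. A further fall might not register there, so the Tnc interval cannot be set against the fall on HFD.

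The interaction of genotype and diet tests whether the diet change in KO differed from that in WT. Limma called 0 of 8 members, where 0.00502% of all genes (1 gene) passed. An unadjusted p under 0.05 was found for 3496 of all 19937 genes and for 3 members. These were Tnc (-1.11 ± 0.32, adjusted p = 0.12), Postn (-1.49 ± 0.46, adjusted p = 0.14) and Fn1 (-0.65 ± 0.21, adjusted p = 0.16). Loxl1 (-0.31 ± 0.17), Lox (-0.39 ± 0.24) and Sparc (-0.19 ± 0.10) were on the same side, while Thbs1 had 0.05 ± 0.45 and Thbs2 0.30 ± 0.38. So 6 of the 8 lay below 0 and none passed. The median of the 8 was -0.35, where that of all genes was 0.01. Without WT HFD replicate 1, Tnc (-1.41, adjusted p = 0.0034) and Postn (-1.72, adjusted p = 0.039) passed, and with array weights the same 2 genes did (-1.15, adjusted p = 0.0066, and -1.24, adjusted p = 0.036). Of all genes, 2060 were called without WT HFD replicate 1 and 2819 with array weights, against 1 in the main fit. The interaction of the other members did not pass in any setting. Since no member passed in the main fit, their responses are not shown to differ between genotypes.

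**Figure D3:**
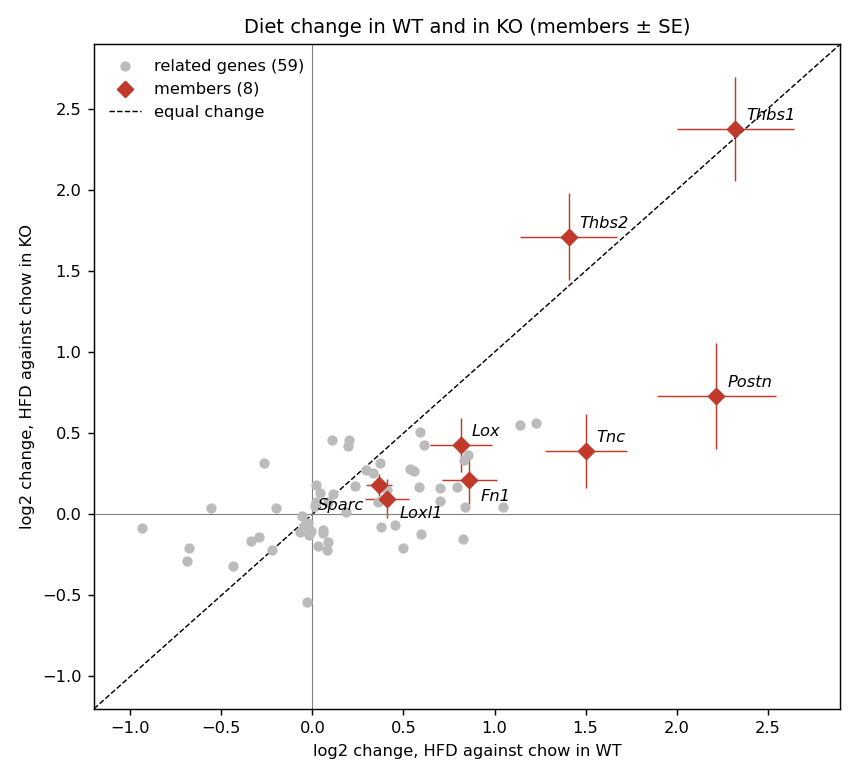
Log2 change from chow to HFD in WT (horizontal axis) against that in KO (vertical axis), for the 8 members (red, ± SE) and 59 related genes (grey); the dashed line marks equal change. Thbs1 lies close to the line at 2.32 and 2.37, and Tnc (1.502 and 0.39) and Postn (2.22 and 0.73) lie below it.

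The order of the groups followed from these comparisons. From lowest to highest mean, Thbs1, Tnc, Fn1, Sparc, Lox and Loxl1 had chow KO, chow WT, HFD KO and HFD WT. The step from chow WT to HFD KO did not pass in 5 of these (0.28 ± 0.23 for Tnc, 0.11 ± 0.15 for Fn1, 0.12 ± 0.07 for Sparc, 0.26 ± 0.17 for Lox and 0.08 ± 0.12 for Loxl1, adjusted p of 0.39 to 0.77). In Thbs1 and Thbs2 it passed: KO on HFD was higher than WT on chow by 2.18 ± 0.32 (adjusted p = 0.013) and by 1.72 ± 0.27 (adjusted p = 0.016), where 0.973% of all genes passed in this direction. Postn had 1.24 ± 0.33 in this comparison (adjusted p = 0.074), with KO HFD arrays above all WT chow arrays, as had Tnc, Thbs1 and Thbs2 (4 of 8, against 14.5% of all genes). In Postn the order of the chow groups was the reverse, KO at 9.80 ± 0.54 (SD, n = 3) above WT at 9.29 ± 0.26. In Thbs2 KO on HFD had the highest mean, 9.56 ± 0.57, next to WT on HFD at 9.25 ± 0.49.

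Genes that work beside these proteins were described from a list of 63, of which 59 were read by a row of their own. The list was chosen with earlier results of these data known, so its counts are a description. On HFD in WT 20 of the 59 rose and 1 fell, against 11.8% and 12.3% of all genes, and in KO 1 rose, the integrin chain Itgb1 (0.25 ± 0.06, adjusted p = 0.029). That count was 0 without any 1 of KO chow replicates 1 and 3 and KO HFD replicates 2 and 3, and 3 without any 1 of WT HFD replicates 1 and 2 and KO HFD replicate 1. In KO against WT on HFD 13 of the 59 fell and 1 rose, against 6.85% and 6.65% of all genes, with a median of -0.14 over the 59 and 0.02 over all genes. This count of 14 was 3 to 5 without any 1 of WT HFD replicates 2 and 3 and KO HFD replicates 1 and 3, 9 without KO HFD replicate 2, and 0 in a fit to the HFD arrays alone. On chow 0 of the 59 passed, with 2 at an unadjusted p under 0.05, where 1116 of all genes were.

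Among relatives of the members, Tnxb, which encodes tenascin X, a tenascin of connective tissue, fell in KO on HFD by 0.59 ± 0.12 (adjusted p = 0.012). It lay at 9.63, 9.61 and 9.51 on the WT and at 9.02, 8.97 and 8.99 on the KO HFD arrays, and it had risen with the diet in WT by 0.79 ± 0.12 (adjusted p = 0.0019). It was the only 1 of 6 other thrombospondins and tenascins to pass in either comparison, and Thbs4 had -0.45 ± 0.19 and Tnr -0.12 ± 0.07 in KO against WT on HFD. Of 8 relatives of SPARC and periostin, Smoc1, a calcium-binding relative of SPARC, moved the opposite way: it fell with HFD in WT by 0.94 ± 0.20 (adjusted p = 0.0077) and was higher in KO than WT on HFD by 0.85 ± 0.20 (adjusted p = 0.022). Fstl1, a follistatin-like secreted protein, rose with the diet in WT (0.70 ± 0.15, adjusted p = 0.0077) and had -0.41 ± 0.15 in KO against WT on HFD (adjusted p = 0.11), while Spock3 had 0.50 ± 0.38. Of 7 CCN proteins and SIBLINGs, Ccn5 fell by 1.18 ± 0.23 (adjusted p = 0.010), from 7.99, 9.19 and 8.77 in WT to 7.51, 7.47 and 7.44 in KO. Ccn3 had 0.86 ± 0.32 and Ccn1 -0.69 ± 0.34, without a pass. Of the other lysyl oxidases, Loxl3 rose with the diet in WT by 0.39 ± 0.13 (adjusted p = 0.049), and in KO against WT on HFD it had -0.35 ± 0.13 and Loxl4 -0.14 ± 0.10.

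Among the collagens that lysyl oxidases crosslink, 4 of 5 rose with HFD in WT and 3 of 5 fell in KO against WT on HFD (11.8% and 6.85% of all genes). All 5 had KO arrays below the WT arrays on HFD, as had 13.5% of all genes. Col1a1, the main fibrillar collagen chain, lay at 11.38, 12.23 and 11.61 on the WT and at 10.78, 11.08 and 10.80 on the KO HFD arrays and fell by 0.86 ± 0.18 (adjusted p = 0.014). Col5a1 fell by 0.39 ± 0.10 (adjusted p = 0.025) and Col1a2 by 0.57 ± 0.17 (adjusted p = 0.045). Of 7 genes for collagen hydroxylases and the collagen chaperone Serpinh1, 4 rose with the diet in WT (11.8% of all genes). In KO against WT on HFD (6.85% of all genes lower) 2 of the 7 fell. These were the lysyl hydroxylases Plod1 (-0.42 ± 0.09, adjusted p = 0.014) and Plod2 (-0.53 ± 0.14, adjusted p = 0.030), whose product is a substrate for crosslinking, and Plod3 had -0.25 ± 0.09. Of 7 partners and activators of lysyl oxidases, Bmp1, the protease that releases active enzyme from its precursor, fell by 0.35 ± 0.10 (adjusted p = 0.035). The matrix glycoprotein Fbln2 fell by 0.53 ± 0.13 (adjusted p = 0.021), and Fbln5 had 0.08 ± 0.12.

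Of 11 receptors, 4 rose with the diet in WT and 2 fell in KO against WT on HFD, against 11.8% and 6.85% of all genes. Itga5, the alpha chain of the classical fibronectin receptor, lay at 8.68, 9.34 and 8.88 on the WT and at 8.18, 8.12 and 8.15 on the KO HFD arrays and fell by 0.82 ± 0.19 (adjusted p = 0.020). Itgav, the alpha chain of integrins that bind fibronectin and periostin, fell by 0.64 ± 0.16 (adjusted p = 0.025), and Itgb1 had -0.12 ± 0.06. In the TGF-beta axis 2 of 6 genes fell, the ligand Tgfb1 by 0.81 ± 0.17 (adjusted p = 0.011) and the receptor Tgfbr1 by 0.79 ± 0.20 (adjusted p = 0.024), and Tgfbr2 had -0.12 ± 0.10. Tgfb1 lay at 9.68, 10.53 and 10.28 on the WT HFD arrays and between 9.32 and 9.38 on the KO HFD arrays.

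Markers of some cell types of the tissue moved in the same comparisons, most of all those of macrophages. The marker lists were also chosen with earlier results of these data known. Of all genes, 11.8% rose with the diet in WT. In KO against WT on HFD, 6.85% of all genes fell and 6.65% rose. Of 13 macrophage markers 12 rose with the diet in WT, 0 passed for the diet in KO, and 11 fell in KO against WT on HFD (Cd68 by 1.89 ± 0.30, adjusted p = 0.0060, and Adgre1 by 1.62 ± 0.33, adjusted p = 0.011). Their mean log2 level was 10.5 to 11.8 on the WT HFD arrays and 9.31 to 9.52 on the KO HFD arrays, against 9.08 to 9.59 on WT and 8.78 to 9.12 on KO chow arrays. On WT HFD replicates 1, 2 and 3 the macrophage level was 10.5, 11.8 and 11.4. Tnc (6.39, 7.52 and 7.01), Postn (11.05, 12.09 and 11.39) and Lox (9.10, 9.70 and 9.39) had the same order, Thbs1 (12.21, 11.35 and 11.01) was highest where the macrophage level was lowest, and Fn1 (12.12, 12.12 and 12.00) differed little. Sparc (13.27, 13.24 and 13.37), Loxl1 (10.10, 10.26 and 9.88) and Thbs2 (9.03, 9.80 and 8.90) did not have the order of the macrophage level, Sparc being lowest where that level was highest. The adipocyte marker level on the same arrays was 12.49, 11.93 and 12.33, the reverse of the macrophage order. The endothelial level (9.56, 8.80 and 9.56) was also lowest on replicate 2. The part of macrophage or adipocyte number in the changes of Tnc, Fn1, Lox and Sparc was not tested.

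The 10 stromal progenitor markers had mean levels of 9.39 to 9.78 on the WT and 9.59 to 9.68 on the KO HFD arrays, which overlapped. The defining markers Pdgfra and Dpp4 did not pass in this comparison, and 2 markers fell, the microfibril gene Mfap5 (-0.68) and Icam1 (-0.53). The 9 smooth muscle and pericyte markers also overlapped (8.14 to 8.62 in WT and 8.15 to 8.60 in KO). In this list Acta2 and Myh11 did not pass, while Pdgfrb, a receptor of pericytes and fibroblasts, fell by 0.72 (adjusted p = 0.0046) and Cspg4 by 0.35 (adjusted p = 0.0499). The 9 adipocyte markers had 11.93 to 12.49 on the WT and 12.54 to 12.62 on the KO HFD arrays, which did not overlap. Of them Plin1, Cebpa and Lipe rose in KO and Lep fell. The 9 endothelial markers had 8.80 to 9.56 and 9.52 to 9.70, with 1 that rose (Tek, 0.51), where 6.65% of all genes did. Pecam1 and Cdh5 did not pass. Of the mesothelial (7), skeletal muscle (5) and platelet (4) markers 0 passed in KO against WT on HFD, and the levels of Msln, Upk3b, Ckm, Pf4 and Ppbp overlapped between these groups. The muscle myosin gene Myh4 lay at 4.61, 4.54 and 4.59 on the KO HFD arrays, all above the WT HFD arrays at 4.51, 4.27 and 4.54 (the nearest pair, 4.5435 in KO and 4.5399 in WT, nearly met), with a difference of 0.14 ± 0.12 (adjusted p = 0.51).

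**Figure D4:**
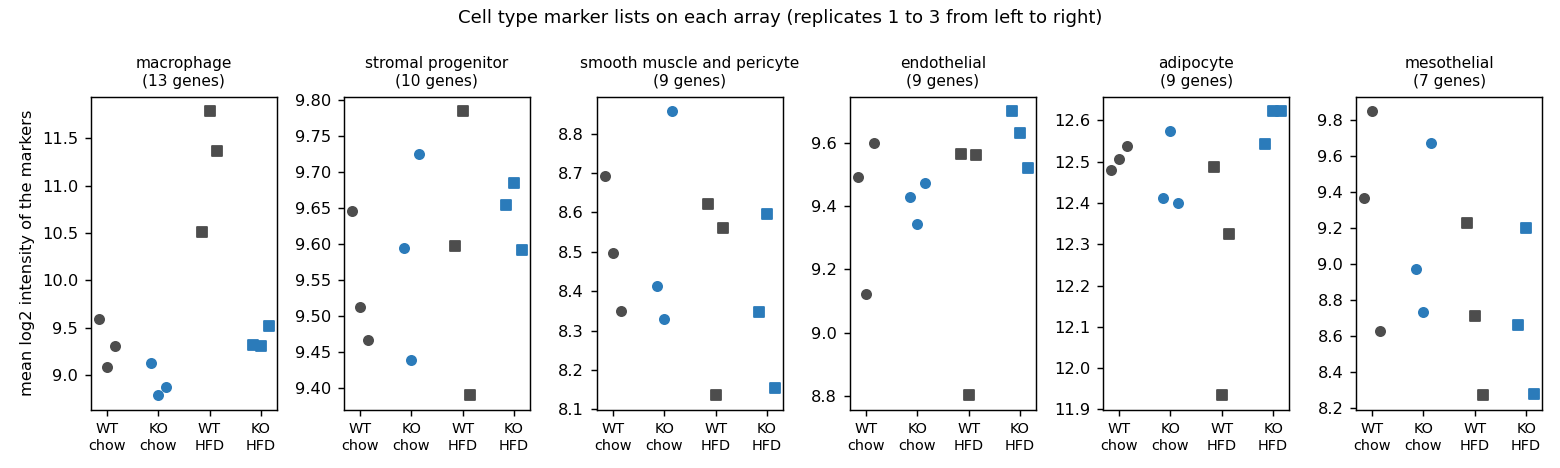
Mean log2 intensity (vertical axis, a separate scale for each list) of the marker genes of 6 cell types on each array by group; grey is WT, blue KO, circles chow, squares HFD, with replicates 1 to 3 from left to right. The macrophage list lies at 10.5 to 11.8 on the WT HFD arrays and below 9.6 on all other arrays, and the stromal progenitor list overlaps between groups.

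Over the 12 arrays the 8 genes correlated positively in all 28 pairs, from r = 0.50 for Thbs2 with Fn1 to 0.90 for Tnc with Lox (median 0.74). The arrays share the 4 groups, so these values follow from the group means in large part: with the group means removed the range was -0.68 to 0.67 with a median of 0.06, and 16 of 28 pairs lay above 0. Lox and Loxl1 kept 0.67 and Tnc and Lox 0.54, while Thbs1 with Lox had -0.59. The genes whose values over the 12 arrays were most like a member's, leaving out predicted genes and clones, were named for each by Pearson's r as a description. For Thbs1 they were Cd3eap and Dusp10 (r = 0.957 and 0.956), and for Thbs2 Klf6 and Dpp8 (0.928 and 0.926). Dusp10, a MAP kinase phosphatase, had means of 8.72 (WT) and 8.60 (KO) under HFD, and 7.36 and 6.95 on chow, so it too was high in both HFD groups. For Tnc they were Prkx and Capza2 (0.984 and 0.983), for Fn1 Casp4 and the proteoglycan gene Vcan (0.981 and 0.972), and for Sparc Lbp and Palld (0.990 and 0.982). Vcan, which encodes the matrix proteoglycan versican, had a mean of 9.03 in WT on HFD and of 7.84 to 8.10 in the other groups. Postn was most like Col5a1 and Lctl (0.971 and 0.967), Lox like Map3k8 and Pcdh7 (0.977 and 0.971), and Loxl1 like its relative Loxl3 and Pepd (0.962 and 0.951).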

How the data were processed

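Total RNA was amplified into biotin-labelled sense target for whole-transcript arrays, per the labels' protocols, and affy is the tool listed in the submitters' processing notes. How the background was corrected, probes summarized and arrays normalized, and the build, are not stated there. The authors deposited 34760 rows of log2 values (2.09 to 14.2, the base inferred from the range) for 12 arrays, without detection calls, so background is unknown. Of these rows 21640 carried 1 gene symbol in the platform annotation, 1321 several and 11799 none. The highest-mean row stood for each of 954 genes with more than 1 row, which left 19937 genes. No filter was applied.

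With limma 3.58.1 in R 4.3.3 a model with 4 group means was fitted (12 arrays, 8 residual degrees of freedom, eBayes), two-sided, with Benjamini-Hochberg adjustment over all genes and a threshold of 0.05. The limma code was checked on simulated data. The members and lists were chosen with earlier results of these data known, and KO on HFD against WT on chow was added after the values were seen. Named are the members, Ahnak, the 3 related genes of smallest p in KO against WT on HFD per role, the first 2 markers of each list and the 2 most similar genes per member. Serpinh1 and markers beyond the first 2 were named after their values were seen. Alternatives were the compared groups alone, array weights, a replicate block, quantile normalization, median centring, a filter on dim rows, the mean of a gene's rows, trended robust eBayes, and leaving out each array. With 3 arrays a group their number limits the precision.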

Additional observations from a re-analysis of the deposited data

How the results depend on the processing

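The count of members called for the diet in WT was 7 to 8 without any array, that for the diet in KO 2 throughout, that for KO against WT on chow 0 throughout, that for KO against WT on HFD 2 to 5 and that for the interaction 0 to 2. For the related genes the ranges were 15 to 21, 0 to 3, 0 to 0, 3 to 16 and 0 to 6. For KO against WT on HFD the members called were 0 when the fit held the compared groups alone, 2 after quantile normalization and 6 with array weights, and the related genes called were 0 for the compared groups alone and 26 with array weights. Array weights also gave 34 related genes for the diet in WT, 6 for the diet in KO, and 2 members and 7 related genes for the interaction. For the diet in KO the 1 related gene became 0 for the compared groups alone or after quantile normalization, 7 with arrays centred on their median, 3 with the filter on dim rows, and 2 with the mean of a gene's rows or trended robust eBayes. The cause was not tested.

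The replicate numbers did not pair the arrays. Of 18 same-numbered pairs, 4 had deviations from their group means that correlated over 0.1 (r = -0.41 to 0.38). In 5 of 18 the same-numbered array was the best match in the other group, looked up in a single direction. With the replicate block 2 members were called for KO against WT on HFD (Sparc adjusted p = 0.068, Lox 0.085), and 0 related genes for the diet in KO.

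Signs turned only in values that did not pass. With array weights Thbs1 in KO against WT on HFD had 0.36 and Thbs2 on chow -0.0002. Without single arrays Thbs1 on HFD reached 0.20 (range -0.40 to 0.20), Thbs2 on HFD -0.0001 (to 0.59), Thbs2 on chow -0.038 to 0.042, Loxl1 on chow -0.11 to 0.075, and the interaction -0.20 to 0.40 for Thbs1 and -0.0097 to 0.58 for Thbs2. Over all genes, the calls for KO against WT on HFD were 2691, 4 with only the compared groups and 7648 with array weights (904 to 3930 without any array). For the diet in WT they were 4802 and 9985 with array weights (3072 to 5285), and for the diet in KO 1264, 585 with only the compared groups, 2137 with array weights and 740 with the block (62 to 1509). For the interaction they were 1, 2819 with array weights, 0 with the block and 75 with the filter (0 to 2060), and for KO against WT on chow 0 (0 to 1).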
